A study of Mus musculus with 9 samples.

Results

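The 39 Hox genes of the mouse were examined in RNA of hair follicle stem cells from mice on free or restricted food. Members were the rows of the deposited gene tables whose symbol is Hoxa, Hoxb, Hoxc or Hoxd followed by a number, which gave 39 of 35006 gene symbols: 11 in the Hoxa cluster, 10 in Hoxb, 9 in Hoxc and 9 in Hoxd. The comparison addressed which members these cells transcribe, as a readout of skin position and cell identity, and whether that differed with diet. There were 5 libraries from C57BL/6J mice fed ad libitum (AL 1 to AL 5) and 4 from C57BL/6J mice under dietary restriction (DR 1 to DR 4), which received each day 70% of what matched AL mice ate. All mice were housed alone, and the CD34+ alpha6+ cells of the follicle bulge, its stem cell niche, were sorted from pools of 3 mice. The labels give no skin region, age, sex, hair cycle stage, irradiation state or batch for any library. They name animal facilities in 2 places without tying libraries to them, and do not say whether each library had its own pool, so p-values measure only the spread between these libraries, which may be technical.

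Hox genes encode transcription factors that bind DNA through a homeodomain. In mammals they lie in 4 clusters, numbered into 13 paralog groups, and the order of genes along a cluster follows the order of their embryonic expression from head to tail. Low numbers (groups 1 to 4) are known for hindbrain and neck, middle numbers (5 to 8) for the trunk, and high numbers (9 to 13) for the lower trunk, tail and distal limb. Adult skin keeps part of that pattern, best known from dermal fibroblasts, and Hoxc13 has a separate role in the hair follicle, where it is needed for hair shaft keratins. In the reference annotation, the 3′ ends of the members follow their numbers on all 4 chromosomes (6, 11, 15 and 2 for Hoxa, Hoxb, Hoxc and Hoxd).

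The shared part of the members is the homeobox, 180 bases that encode the homeodomain. It is printed for Hoxb6, Hoxc8 and Hoxd8, whose levels fell under DR (below), and for Hoxc13, the hair follicle member, from GENCODE M21 transcripts in the sense of the gene. Capitals mark bases 142 to 159, the codons at the centre of the helix that contacts DNA.
Hoxb6: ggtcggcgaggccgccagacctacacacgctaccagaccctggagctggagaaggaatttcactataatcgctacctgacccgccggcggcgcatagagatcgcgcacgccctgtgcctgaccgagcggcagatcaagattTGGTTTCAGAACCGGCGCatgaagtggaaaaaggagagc
Hoxc8: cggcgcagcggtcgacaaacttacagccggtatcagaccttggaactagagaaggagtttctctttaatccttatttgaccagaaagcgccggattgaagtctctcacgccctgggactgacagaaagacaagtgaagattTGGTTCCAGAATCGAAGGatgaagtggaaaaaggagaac
Hoxd8: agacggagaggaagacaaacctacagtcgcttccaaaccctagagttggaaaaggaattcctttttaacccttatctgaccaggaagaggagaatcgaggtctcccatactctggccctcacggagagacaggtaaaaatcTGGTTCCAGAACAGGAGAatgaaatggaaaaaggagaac
Hoxc13: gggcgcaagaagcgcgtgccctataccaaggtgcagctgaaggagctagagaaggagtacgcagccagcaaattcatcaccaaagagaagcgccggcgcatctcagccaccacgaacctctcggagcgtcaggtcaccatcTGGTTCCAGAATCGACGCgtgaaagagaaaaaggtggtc
Hoxc8 and Hoxd8, of the same paralog group, were identical at 73.3% of these bases, Hoxb6 and Hoxc8 at 72.8%, and Hoxc8 and Hoxc13 at 53.3%. Over all 39 homeoboxes, identity with the closest other member ran from 71.7% to 93.9%, the latter between Hoxa3 and Hoxb3. Reads of 51 bases could still be told apart: of the 51-base runs in each transcript, only 2 in Hoxa6 and 2 in Hoxb4 occurred in another member. Overlap with other transcripts was larger. In GENCODE M21, 84.9% of the runs of Hoxd3, 62.2% of Hoxb3, 57.2% of Hoxb2 and 42.2% of Hoxd4 also occurred in antisense, readthrough or noncoding transcripts. The share was 33.7% for Hoxa11, 27% for Hoxa7, 26.2% for Hoxa3 and 20.5% for Hoxd11. The library kit does not mark strand, so the counts of those members are uncertain, also where they are 0. By how much is not known, because the annotation used for the files was not given.

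The libraries held 26119459 to 33559312 gene counts, so a count of 0 allowed a level of up to 0.0816 to 0.113 CPM (3 counts, counting error only). CPM are counts scaled to a common library total after TMM normalization, quoted here as mean ± SD with n = 5 for AL and n = 4 for DR. The 12 bulge markers summed to 28300 to 39200 CPM in AL and 21100 to 22700 CPM in DR. Krt5 (13150 and 6990 CPM in AL and DR), Krt15 (12360 and 8498 CPM) and Krt14 (4153 and 2935 CPM) held most of these sums. The sums do not measure how pure the sort was. In DR, 7 of the 12 were lower, namely those keratins, Sox9, Tcf3, Npnt and Cd34, and 1, Cd200, was higher. Cd34, a marker of the sort, went from 1083 ± 579 to 478.7 ± 102 CPM, with overlap. Itga6, the gene of alpha6, did not pass (448.6 and 412.1 CPM). Marker sums of other cells were lower than those of the bulge. The 6 interfollicular epidermis markers came nearest, at 2220 to 6150 CPM in AL and 2290 to 6890 CPM in DR, and none changed. Some markers of the other cell types moved with diet. The 8 dermal papilla markers summed to 98.8 to 119 CPM in AL and 70 to 84.8 CPM in DR (1 lower, 4 tested). Of their mean sums, Trps1 held 79.38 and 53.9 CPM. The 4 Schwann markers summed to 5.93 to 7.84 CPM in AL and 3.34 to 5.07 CPM in DR (3 lower). Of 6 tested melanocyte markers, 3 fell (Dct, Tyrp1 and Kit), while the sums overlapped (112 to 231 CPM in AL, 125 to 177 CPM in DR). The 12 dermal fibroblast markers, cells that themselves express Hox genes, summed to 381 to 421 CPM in AL and 244 to 293 CPM in DR (3 lower, 1 higher, 8 tested). Fbln1, which did not pass (adjusted p = 0.093), made up 254.2 and 193.8 CPM of the mean sums, and without it they were 105 to 184 CPM in AL and 34 to 92.6 CPM in DR. Of the rest, the matrix genes Col1a1 (49.39 to 4.876 CPM) and Col1a2 (51.93 to 19.6 CPM) and the surface gene Thy1 (13.1 to 2.905 CPM) fell, and the receptor gene Pdgfra rose from 1.074 to 3.022 CPM. Vim (9.985 and 13.28 CPM in AL and DR), Fn1 (19.39 and 18.8 CPM) and Dcn (0.9565 and 1.669 CPM) did not pass. Twist2 had 0 or 1 count, and Lum, Dpt and Col3a1 were also too low to be tested. Endothelial markers (6, none changed) reached 42.4 CPM in DR 1, 26.4 in DR 2 and 21.9 in AL 1, and 3.24 to 12.6 CPM elsewhere. Immune markers (6, none changed) likewise reached 39.3, 29.8 and 31.6 CPM in those 3 libraries and 2.22 to 10.1 CPM in the others. In bulk RNA, fewer cells of a type and less RNA per cell cannot be told apart.

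Bulge stem cells of both diets transcribed the low and middle part of the Hox clusters, and of the high part only group 9 and Hoxc13. At least 1 CPM was reached by 26 members in 8 libraries and by 25 in AL 4, where Hoxc9 stood at 0.583 CPM. They included Hoxa2 to Hoxa7 and Hoxa9, Hoxb2 to Hoxb9, Hoxc4, Hoxc5, Hoxc6, Hoxc8, Hoxc9 and Hoxc13, and Hoxd3, Hoxd4, Hoxd8 and Hoxd9. All 11 members of groups 5 to 8 were among them, and 10 of the 12 members of groups 1 to 4, but 5 of the 16 members of groups 9 to 13. With at least 1 count, 29 to 34 members were detected per library.

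Levels differed widely between members when set per length (CPM per kb of exon). Hoxa7, at 51.8 ± 7 CPM per kb in AL, was followed by Hoxb6 (49.5 ± 4), Hoxc8 (45 ± 5.7), Hoxa6 (44.3 ± 4) and Hoxa5 (34.3 ± 4.5). The first 4 of these lay within 2 SD of each other, so that their order is not settled by these libraries. The middle of the range held Hoxc6 (23.5), Hoxb9 (23), Hoxb7 (18.2), Hoxa3 (15), Hoxd8 (14.8), Hoxc13 (13.8), Hoxb4 (12.4) and Hoxa2 (10.2 CPM per kb). At the low end of the expressed members were Hoxd3 (1.53), Hoxd4 (1.52), Hoxd9 (1.09) and Hoxc9 (0.774 CPM per kb). In DR, Hoxa7 was again highest at 54.8 CPM per kb, ahead of Hoxa6 (40.5), Hoxb6 (35.3), Hoxc8 (30.7) and Hoxa5 (30.2), and Hoxc13 stood at 18.1 CPM per kb. By share of Hox counts, Hoxa held 33.3% to 43.1% of a library, Hoxb 29.4% to 34.4%, Hoxc 21.1% to 25.3% and Hoxd 3.68% to 11.7%.

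**Figure D1:**
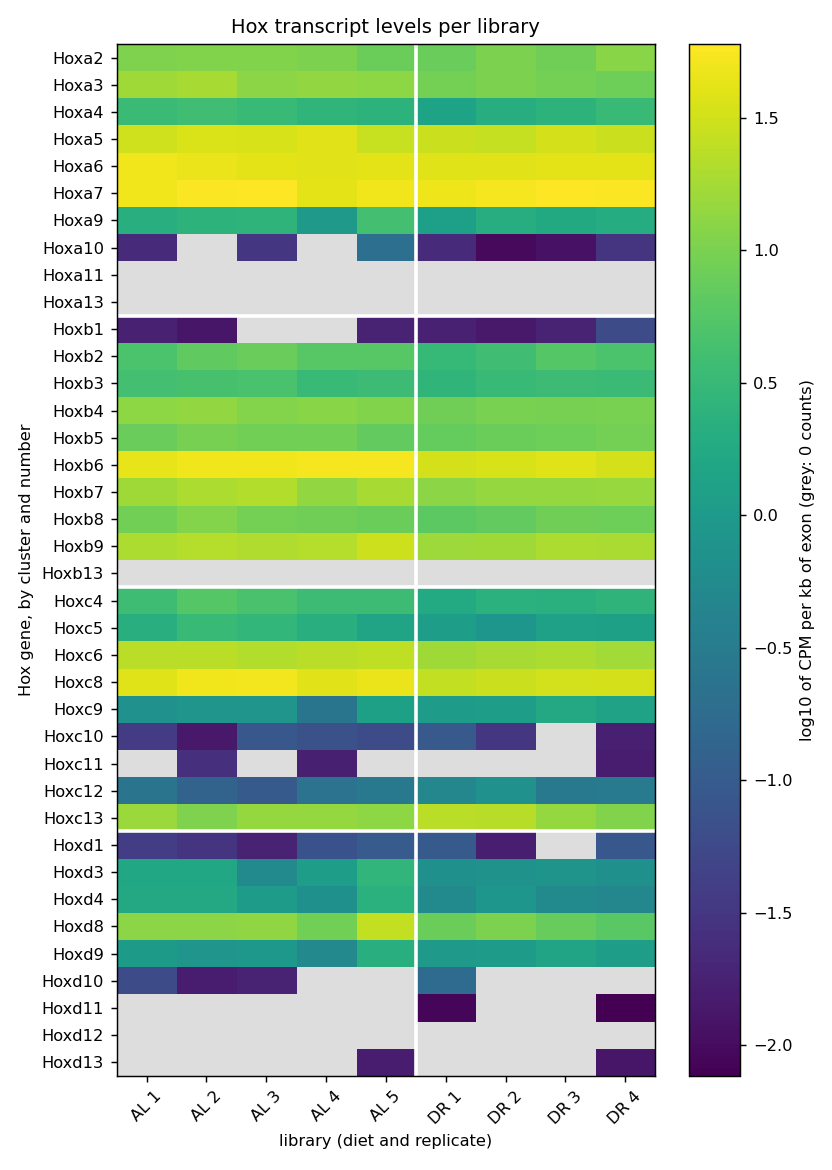
Level of 38 of the 39 Hox genes (rows, by cluster and number) in the 9 libraries (columns, AL left and DR right), as log10 of CPM per kb of exon; grey marks 0 counts. Rows of groups 2 to 8 are mostly green to yellow across all columns, and apart from Hoxc13 the rows of groups 10 to 13 are dark or grey.

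The other 13 members lay at or near 0. Hoxa11, Hoxa13, Hoxb13 and Hoxd12 had no count in any library. Hoxd11 and Hoxd13 had 0 or 1 count, Hoxc11 0 to 2, Hoxb1 0 to 4, and Hoxc10 and Hoxd1 0 to 5 counts. Hoxd10 had 9 counts in DR 1, 3 in AL 1 and 0 or 1 elsewhere. Hoxa10 had 17 counts in AL 5 and 0 to 3 in each of the other libraries. Hoxc12, the neighbour of Hoxc13 and like it known from the hair follicle, was the highest of this set, with 7, 5, 3, 7 and 8 counts in AL 1 to 5 and 14, 25, 8 and 10 in DR 1 to 4. Its levels were 0.101 to 0.301 CPM in AL and 0.301 to 0.748 CPM in DR, with DR 3 level with AL 5. Without the filter on low counts, which all 13 failed, the edgeR test gave Hoxc12 a log2 fold change of 1.2 (adjusted p = 0.051). In all 9 libraries the members at 1 CPM or more thus belonged to groups 1 to 9, with Hoxc13 as the one exception. No skin position was assigned from it, because the labels name no region.

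Between the diets, 12 of the 26 tested Hox genes were lower in DR and none was higher by edgeR's quasi-likelihood test (adjusted p under 0.05), and 14 did not pass. Over all 15447 genes tested, 40.7% changed, 21.7% lower and 19% higher, so the members' 46.2% lower stands beside that background. Their median log2 fold change was -0.36, against -0.02 over all tested genes, and 21 of the 26 were below 0. In 7 members every DR library lay below every AL library, and in none the reverse; of all tested genes 17% did so, and 32.9% had groups that did not overlap in either direction. The genes that fell were Hoxa3; Hoxb4, Hoxb6, Hoxb7 and Hoxb9; Hoxc4, Hoxc5, Hoxc6 and Hoxc8; and Hoxd3, Hoxd4 and Hoxd8. By cluster, 1 of 8 tested members passed in Hoxa, 4 of 8 in Hoxb, 4 of 6 in Hoxc and 3 of 4 in Hoxd, with median log2 fold changes of -0.16, -0.35, -0.46 and -0.98. By position along the cluster, 5 of 10 tested members of groups 1 to 4 fell, 6 of 11 of groups 5 to 8, and 1 of 5 of groups 9 to 13. The differences between clusters and between positions were not tested. The sums of fibroblast, dermal papilla and Schwann markers given above were lower in every DR library too, that of fibroblasts with and without Fbln1. Of the 8 tested fibroblast markers, 3 fell, Pdgfra rose, and Fbln1, Vim, Fn1 and Dcn did not pass. The part of such cells in these counts was not tested.

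**Figure D2:**
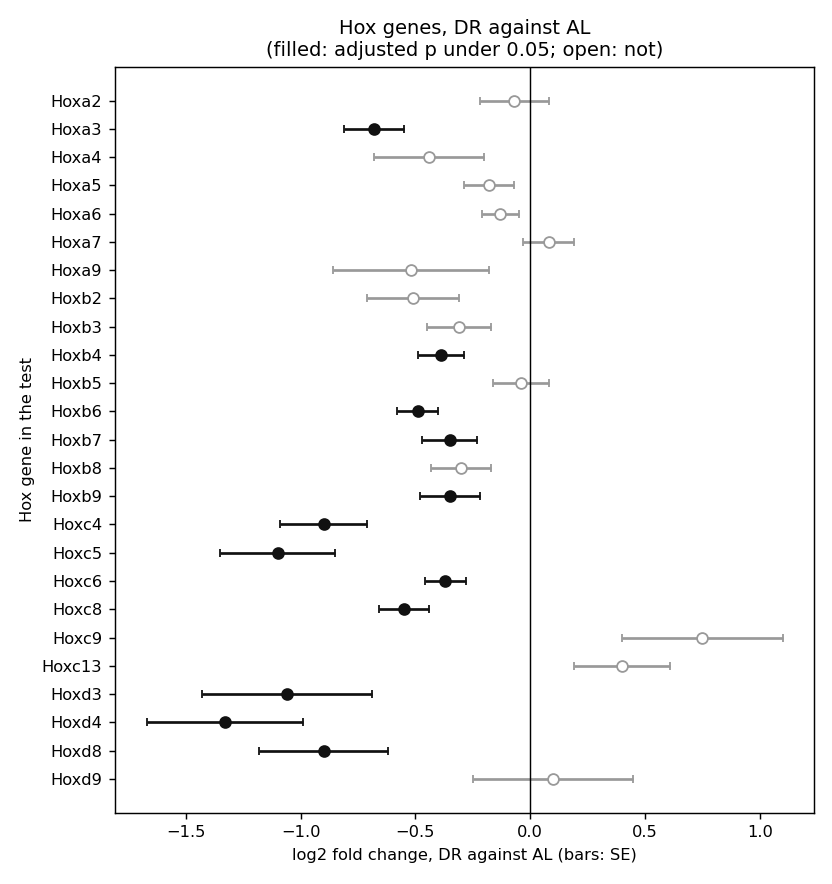
Log2 fold change of DR against AL for 25 of the 26 tested Hox genes, with bars of 1 SE; filled points passed the adjusted p of 0.05 and open points did not. Filled points lie left of 0 throughout, from -0.35 (Hoxb7, Hoxb9) to -1.33 (Hoxd4), and the open points of Hoxc9 and Hoxc13 lie farthest to the right.

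The count of lower members depended on which libraries entered. It was 9 without any single one of AL 2, AL 5, DR 1, DR 2 or DR 3, 8 without DR 4, and 7 without DR 1 and DR 2, the DR libraries with the most endothelial and immune transcripts (an alternative added after the data were seen). Without AL 1 as well, it was 4: Hoxa3, Hoxb6, Hoxc4 and Hoxc8. The settings without DR 1 and DR 2 also had fewer libraries, and 18.1% and 15.7% of all tested genes were then lower. In the settings with 9 or 8 lower members, 17% (without DR 3) to 21.8% (without AL 5) of all tested genes were lower. With all libraries it was 21.7%.

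In the Hoxa cluster, the gene that changed was Hoxa3, known for the thymus, parathyroid and neck skeleton. Hoxa3 was measured at 42.7, 48.6, 32.7, 35.9 and 33.9 CPM in AL 1 to 5 and at 24.1, 26.8, 23.9 and 21.7 CPM in DR 1 to 4. Its mean went from 38.75 ± 6.72 to 24.12 ± 2.11 CPM, or -0.68 as log2 fold change (SE 0.13, adjusted p = 0.0017). No DR library reached the lowest AL library.

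Its neighbours on both sides did not pass. Hoxa2, which sets the identity of the branchial arch behind the jaw, was at 19, 19.4, 19.3, 18.4 and 14.4 CPM in AL and at 13.7, 18.3, 15.2 and 21.6 CPM in DR (log2 fold change -0.07, adjusted p = 0.72). AL 5 was the lowest AL library for Hoxa2, and the groups overlapped. Hoxa4 was at 5.53, 6.09, 5.2, 4.29 and 4.06 CPM in AL and at 2.19, 3.29, 4.1 and 5.26 CPM in DR (-0.44, adjusted p = 0.17), with DR 4 inside the AL range.

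The abundant middle genes of the cluster had similar values in both groups. Hoxa5, known for the neck and chest skeleton and the lung, was at 59.6, 69, 65, 75.1 and 53.3 CPM in AL and at 55.6, 51.8, 64.2 and 55.5 CPM in DR (log2 fold change -0.18, SE 0.11, adjusted p = 0.20). Hoxa6 was at 44.1, 40.2, 37, 35.4 and 36.8 CPM in AL and at 33.4, 35.6, 36.6 and 35.8 CPM in DR (-0.13, SE 0.08, adjusted p = 0.24). Hoxa7, a gene also studied in epidermal keratinocytes, was at 99.97, 115.9, 119.3, 84.6 and 100.4 CPM in AL and at 94.7, 108, 120.9 and 116.7 CPM in DR (0.08, SE 0.11, adjusted p = 0.60). The AL and DR ranges overlapped for all 3, and DR 3 held the highest Hoxa7 level of all 9 libraries.

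In the Hoxb cluster, 4 of 8 tested genes fell and the other 4 were also below 0. Hoxb4, known for its effect on the growth of blood stem cells, was at 33.9, 36.4, 28.8, 31.2 and 28.4 CPM in AL and at 21.8, 25.3, 24.9 and 25.1 CPM in DR. That is 31.73 ± 3.40 against 24.27 ± 1.66 CPM, or -0.39 on the log2 scale (SE 0.10, adjusted p = 0.0092). Hoxb6, the most abundant Hoxb gene per length, was at 56.7, 65.4, 65.3, 70 and 69.4 CPM in AL and at 44.4, 45.8, 51.2 and 45 CPM in DR. Both genes separated the diets without overlap, and Hoxb6 changed by -0.49 on the log2 scale (SE 0.09, adjusted p = 0.0012).

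Hoxb7 and Hoxb9 passed narrowly. Hoxb7 was at 21.7, 26.1, 27.5, 18.4 and 23.8 CPM in AL and at 16.5, 19.1, 18.7 and 19.7 CPM in DR (log2 fold change -0.35, SE 0.12, adjusted p = 0.043). AL 4 lay within the DR range, and the call was lost without any one library other than AL 4 (adjusted p of 0.051 to 0.11). Hoxb9, known for the ribs, was at 51.8, 57.8, 52.7, 57.3 and 77 CPM in AL and at 42, 42.8, 51.8 and 49.8 CPM in DR (-0.35, SE 0.13, adjusted p = 0.047). AL 5 stood well above the rest, and without it the log2 fold change was -0.24 (adjusted p = 0.066). The Hoxb9 call was also lost without AL 2, AL 4 or any single DR library (adjusted p of 0.06 to 0.12). Both genes passed in 6 and 5 of 17 alternative settings.

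Of the Hoxb genes that did not pass, Hoxb2 came nearest. Hoxb2, a hindbrain gene, was at 7.73, 11, 12.7, 9.54 and 9.37 CPM in AL and at 5.03, 6.31, 9.28 and 7.61 CPM in DR (log2 fold change -0.51, adjusted p = 0.060). It passed in 6 of the 17 settings, as many as Hoxb7: without AL 1 (adjusted p = 0.042) or DR 3 (0.032), with the replicate number as a block (0.016), by the DESeq2 Wald test (0.041), and with scaling by upper quartile (0.038) or library size (0.049). Of its 51-base runs, 57.2% are shared with an antisense transcript. Hoxb3 was at 14.7, 15.6, 16.1, 11.4 and 12.4 CPM in AL and at 9.6, 11.2, 12.5 and 12 CPM in DR (-0.31, adjusted p = 0.090). It passed without AL 4 (adjusted p = 0.043), the lowest AL library for this gene, and with limma-voom quality weights (0.043). Hoxb8, known from blood cell precursors, was at 23.2, 29.9, 24.4, 22.7 and 21.3 CPM in AL and at 16.3, 18.2, 22.4 and 22 CPM in DR (-0.30, adjusted p = 0.088), and passed under upper-quartile scaling alone (0.048). For Hoxb5 the levels were 14.9, 17.9, 17.2, 16.8 and 13.2 CPM in AL and 13.7, 15.1, 15.9 and 17.7 CPM in DR, with a log2 fold change of -0.04 (adjusted p = 0.83). The groups overlapped for all 4.

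In the Hoxc cluster, the 4 genes from Hoxc4 to Hoxc8 all fell and did not overlap between diets. Hoxc4 was at 7.26, 11.3, 8.98, 7.07 and 7.11 CPM in AL and at 3.6, 4.64, 4.51 and 5.19 CPM in DR, with means of 8.354 ± 1.85 and 4.484 ± 0.662 CPM (-0.90 on the log2 scale, SE 0.19, adjusted p = 0.0031). Hoxc5 was at 6.25, 9.85, 8.61, 6.14 and 4.22 CPM in AL and at 3.27, 2.48, 3.8 and 3.61 CPM in DR, with means of 7.014 ± 2.22 and 3.291 ± 0.58 CPM (-1.10, SE 0.25, adjusted p = 0.0053). AL 2 was highest for both, and AL 5, the lowest AL library for Hoxc5, still exceeded every DR library.

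The 2 abundant Hoxc genes fell by less on the log2 scale. Hoxc6 was at 37, 37.5, 33.4, 37.5 and 40.3 CPM in AL and at 26.6, 29.6, 31.7 and 27 CPM in DR (37.15 ± 2.5 against 28.71 ± 2.38 CPM, -0.37 on the log2 scale, SE 0.09, adjusted p = 0.0059). Hoxc8, known for the lower chest skeleton and for motor neurons of the forelimb, was at 72.8, 92.1, 96.4, 73.9 and 85 CPM in AL and at 49.3, 55.7, 60.9 and 63.5 CPM in DR. Its means of 84.05 ± 10.6 and 57.34 ± 6.3 CPM differed by -0.55 on the log2 scale (SE 0.11, adjusted p = 0.0027). DR 4, the highest DR library for Hoxc8, lay below AL 1, the lowest of AL.

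**Figure D3:**
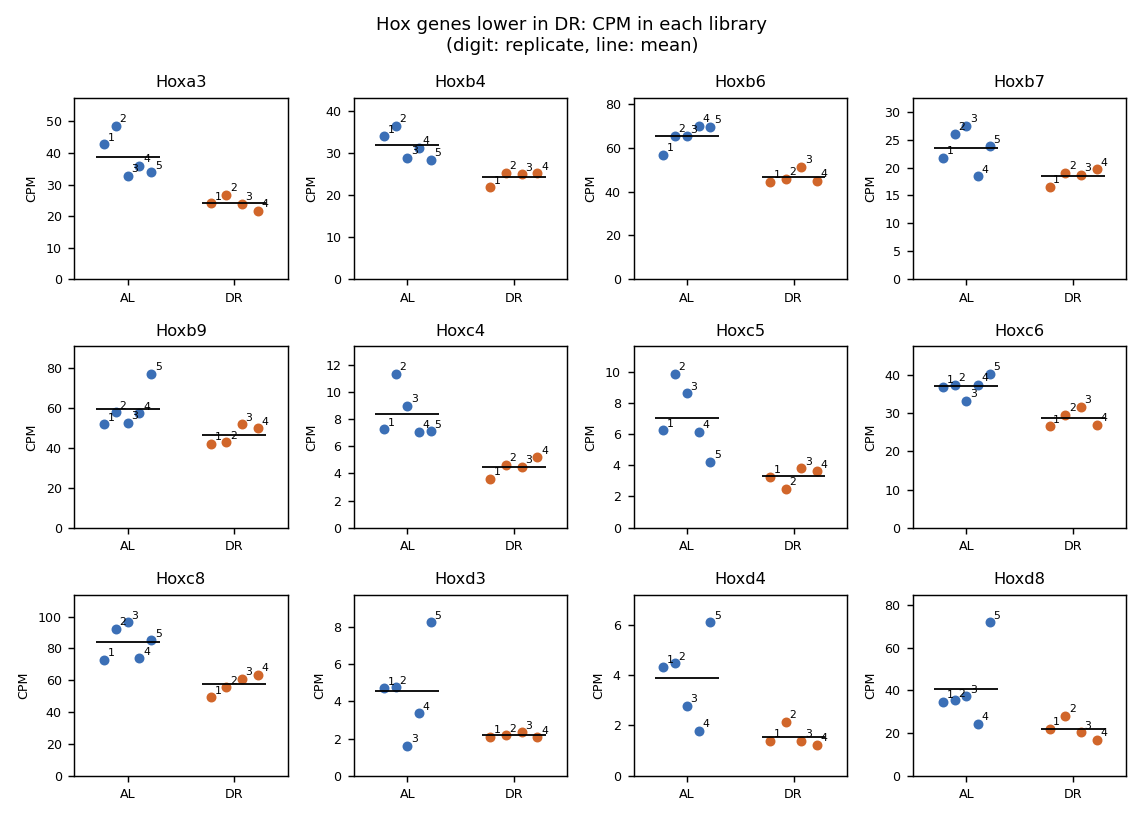
CPM in each library (points, numbered by replicate; lines, group means) for the 12 Hox genes lower in DR, with every axis starting at 0. The groups are separate for Hoxa3, Hoxb4, Hoxb6, Hoxc4, Hoxc5, Hoxc6 and Hoxc8; for Hoxb9, Hoxd3, Hoxd4 and Hoxd8 AL 5 is the highest point.

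The Hoxd cluster had the lowest summed level and 3 of its 4 tested genes fell. Promoters are printed for Hoxd4 and Hoxd8, a weakly expressed gene that fell and the most abundant of the cluster, as the 250 bases of RefSeq GRCm38.p6 upstream of the start on the plus strand, chr2:74721728-74721977 and chr2:74704365-74704614. Capitals mark matches to CCAAT and TATAAA on either strand.
Hoxd4: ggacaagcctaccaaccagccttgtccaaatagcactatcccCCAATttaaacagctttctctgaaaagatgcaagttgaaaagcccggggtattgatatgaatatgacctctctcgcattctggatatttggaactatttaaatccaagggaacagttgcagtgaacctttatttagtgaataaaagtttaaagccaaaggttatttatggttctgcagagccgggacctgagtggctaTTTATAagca
Hoxd8: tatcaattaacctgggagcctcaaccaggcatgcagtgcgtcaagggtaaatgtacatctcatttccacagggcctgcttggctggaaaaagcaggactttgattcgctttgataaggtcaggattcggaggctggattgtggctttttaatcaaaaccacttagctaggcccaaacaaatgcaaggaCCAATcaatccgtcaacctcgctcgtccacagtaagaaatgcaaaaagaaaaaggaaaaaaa
Both windows hold 1 CCAAT match, and that of Hoxd4 also 1 TATAAA match. Windows were found for 22 members (24 windows), of which 14 hold CCAAT and 4 hold TATAAA, against 33.8% and 12.4% of 32851 mouse windows of that length. These matches describe the letters only.

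Hoxd4 was at 4.33, 4.46, 2.78, 1.78 and 6.1 CPM in AL and at 1.4, 2.15, 1.39 and 1.23 CPM in DR. Its means of 3.892 ± 1.66 and 1.543 ± 0.415 CPM differed by -1.33 on the log2 scale (SE 0.34, adjusted p = 0.0098). AL 4 lay below DR 2, and without AL 5 the value was -1.11 (adjusted p = 0.016). Hoxd3, known for the upper neck vertebrae, was at 4.7, 4.76, 1.61, 3.36 and 8.24 CPM in AL and at 2.09, 2.18, 2.33 and 2.06 CPM in DR (-1.06, SE 0.37, adjusted p = 0.040). AL 3 was below all 4 DR libraries, and the call was lost without AL 1, AL 2, AL 5 or any single DR library (adjusted p of 0.066 to 0.092). Readthrough and antisense transcripts share 84.9% of the 51-base runs of Hoxd3 and 42.2% of those of Hoxd4.

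Hoxd8, the abundant member of this cluster, was at 34.5, 35.3, 37.2, 24.2 and 71.8 CPM in AL and at 22.1, 28, 20.4 and 16.8 CPM in DR. The log2 fold change was -0.90 (40.6 ± 18.2 against 21.81 ± 4.69 CPM, SE 0.28, adjusted p = 0.024). AL 5 stood far above the other AL libraries and AL 4 lay below DR 2. Without AL 5 the log2 fold change was -0.59 (adjusted p = 0.019), without DR 3 the adjusted p was 0.067, and without DR 4 it was 0.076.

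Besides Hoxb9, which fell, the tested members of groups 9 to 13 did not pass and lay on both sides of 0. Hoxc9, of the lower chest, was at 1.7, 1.99, 1.94, 0.583 and 2.97 CPM in AL and at 2.55, 2.66, 4.02 and 3.16 CPM in DR. Its log2 fold change was 0.75 (SE 0.35, adjusted p = 0.11), and without AL 5, the one AL library above DR 1, it was 0.99 (adjusted p = 0.036). Hoxd9 was at 2.2, 1.77, 1.94, 1.13 and 4.55 CPM in AL and at 2.01, 2.36, 3.08 and 2.45 CPM in DR (0.10, SE 0.35, adjusted p = 0.84). Hoxa9, known from blood cells and leukaemia, was at 7.01, 8.21, 8.45, 3.12 and 13.5 CPM in AL and at 3.85, 6.55, 5.67 and 6.32 CPM in DR (-0.52, SE 0.34, adjusted p = 0.24). Its value turned on 2 libraries: without AL 4, the lowest of all 9, the log2 fold change was -0.73 (adjusted p = 0.035), and without AL 5, the highest, it was -0.26 (adjusted p = 0.51).

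The SD of Hoxa9, Hoxc9 and Hoxd9 was larger over AL (3.71, 0.854 and 1.31 CPM) than over DR (1.23, 0.669 and 0.445 CPM). AL 5 was the highest and AL 4 the lowest AL library for Hoxa9, Hoxc9, Hoxd9, Hoxd8 and Hoxd4. AL 5 also held 17 of the 29 counts of Hoxa10. Interfollicular epidermis markers were low in both, at 2330 CPM in AL 4 and 2220 in AL 5 against 4930 to 6150 CPM in the other AL libraries. DR 1 was as low, at 2290 CPM. Of the bulge markers, Cd34 was at 2041 CPM in AL 5 and at 530.7 to 1108 CPM in the other AL libraries. Lgr5 was at 315.4 CPM in AL 5 and at 601.2 to 712.3 CPM in the others of AL. The melanocyte marker sum was highest in AL 4 and AL 5, at 184 and 231 CPM, of which Mitf held 158.6 and 223.4 CPM. Dct (14.04 and 2.71 CPM) and Tyrp1 (2.162 and 0.2258 CPM) were highest of AL in AL 4 and lowest in AL 5. The part of such cells in the Hox levels was not tested. Without AL 4 and AL 5, an alternative added after the data were seen, 11 members were lower and 1, Hoxc9, was higher (log2 fold change 0.73, adjusted p = 0.028). Of all tested genes, 39.9% changed in that setting, 20.3% lower.

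Within 2 clusters the level of the group 9 gene relative to its neighbour of group 8 separated the diets. These ratios were formed after the values were seen and carry no test. Their denominators Hoxc8 and Hoxd8 were already called lower (log2 fold changes -0.55 and -0.90), so higher ratios in DR partly restate those calls. The numerators Hoxc9 and Hoxd9 did not pass (0.75 and 0.10). Hoxc9 counts were 0.79% to 3.5% of Hoxc8 counts in AL (mean 2.16% ± 0.964) and 4.78% to 6.6% in DR (5.39% ± 0.826). Hoxd9 counts were 4.68% to 6.38% of Hoxd8 counts in AL (5.53% ± 0.783) and 8.44% to 15.1% in DR (11.8% ± 3.53). For Hoxb9 over Hoxb8 the values were 249% ± 65.9 and 238% ± 13.7, and for Hoxa9 over Hoxa7 they were 7.66% ± 3.54 and 5.06% ± 0.869. The groups overlapped in both of these.

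Hoxc13 was the member of groups 10 to 13 with a high level, at 38.7, 26.6, 35.7, 36.2 and 32.1 CPM in AL and at 59.4, 55.6, 35.8 and 27.5 CPM in DR. The means were 33.87 ± 4.70 and 44.57 ± 15.4 CPM (log2 fold change 0.40, SE 0.21, adjusted p = 0.15). DR 1 and DR 2 lay above all AL libraries, and DR 3 and DR 4 within their range. DR 1 and DR 2 were also the DR libraries with the most endothelial and immune marker transcripts (42.4 and 26.4 CPM, and 39.3 and 29.8 CPM); AL 1, with 21.9 and 31.6 CPM of these, had the highest Hoxc13 level of AL. Without DR 1 and DR 2 the log2 fold change was -0.09 (adjusted p = 0.69), and without DR 4 it was 0.57 (adjusted p = 0.029). The part of other cells in the Hoxc13 level was not tested.

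**Figure D4:**
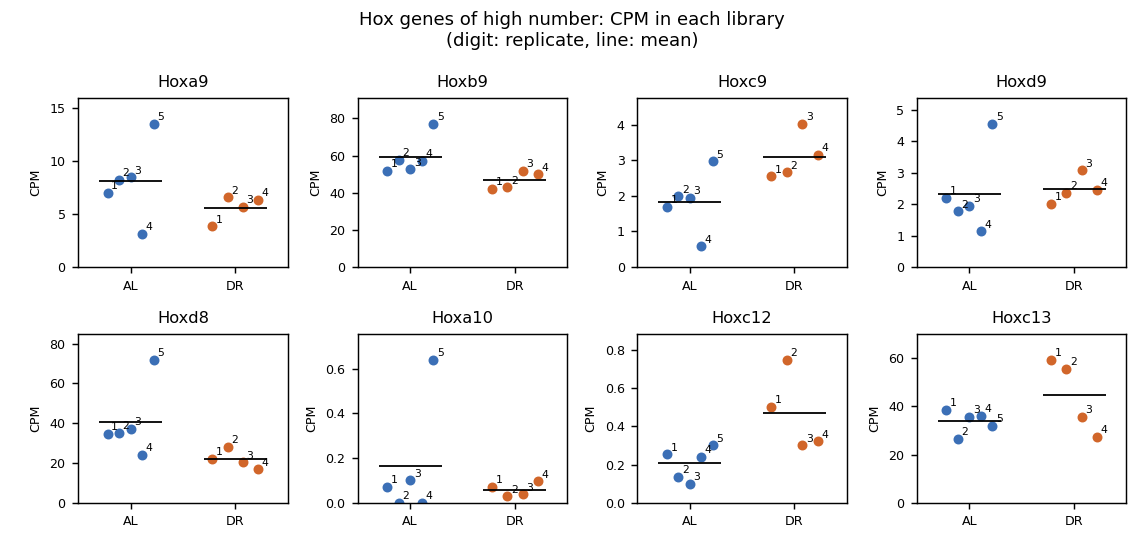
CPM in each library (points, numbered by replicate; lines, group means) for group 9 genes, Hoxd8, Hoxa10, Hoxc12 and Hoxc13, with every axis starting at 0. AL 5 is the highest AL point in the 7 panels other than Hoxc13, AL 4 is the lowest for Hoxa9, Hoxc9 and Hoxd9, and for Hoxc13 DR 1 and DR 2 stand above the other libraries.

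Summed over all 39 genes, Hox transcripts were at 716, 796.4, 763.7, 689.6 and 776.9 CPM in AL and at 573.8, 624.7, 648.3 and 618.5 CPM in DR, so that DR held 82.3% of the AL mean (748.5 ± 44.3 against 616.3 ± 31.1 CPM) without overlap. By number, the sums were 137.5 ± 14.8 against 99.5 ± 8.58 CPM in groups 1 to 4 and 505.1 ± 34.9 against 413.8 ± 29.5 CPM in groups 5 to 8, both without overlap. In groups 9 to 13 the sums were 105.9 ± 14.3 and 103.1 ± 10.1 CPM, of which Hoxc13 held 33.87 and 44.57 CPM. Without Hoxc13 they were 72.06 ± 15.4 and 58.51 ± 6.19 CPM, of which Hoxb9 alone held 59.31 and 46.62 CPM. DR then held 81.2% of the AL mean, close to the 81.9% of groups 5 to 8 and with overlap between diets. The mean of Hoxa9 was also lower in DR, and those of Hoxc9 and Hoxd9 were higher. By cluster, Hoxb went from 244.3 ± 14.1 to 189.8 ± 16.5 CPM and Hoxc from 172.6 ± 10 to 142 ± 8.88 CPM, again without overlap. Hoxa (280.1 ± 21.8 against 256.4 ± 18.7 CPM) and Hoxd (51.48 ± 23 against 28.19 ± 4.96 CPM) overlapped between diets. These sums weight abundant members most and carry no test.

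Hox proteins bind DNA together with TALE homeodomain partners of the Pbx, Meis and Pknox families. Of these 9 genes, all tested, 1 rose and 3 fell under DR (median log2 fold change -0.14). That is 44.4% changed, near the 40.7% of all tested genes. Pknox2 was at 17.1, 13.95, 19.2, 16.6 and 24 CPM in AL and at 44.5, 50.2, 60 and 66 CPM in DR (log2 fold change 1.60, SE 0.16, adjusted p = 5.5e-05). Every DR library held more Pknox2 than any AL library. Meis1, a partner that can bind DNA as a complex with Hox and Pbx proteins, was at 44.8, 38.5, 40.3, 55.05 and 47.2 CPM in AL and at 30.2, 31.75, 24.6 and 29.7 CPM in DR (-0.64, SE 0.12, adjusted p = 0.0017). Pknox1 fell from 35.98 ± 2.56 to 25.32 ± 5.8 CPM (-0.51, adjusted p = 0.011), with DR 1 inside the AL range. Pbx4 fell from 1.863 ± 0.437 to 0.9476 ± 0.181 CPM (-0.97, adjusted p = 0.0073). The abundant partners Pbx2 (-0.14, adjusted p = 0.13) and Pbx3 (0.03, 0.84) did not pass, nor did Meis2 (-0.04, 0.83) and Meis3 (0.71, 0.056).

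**Figure D5:**
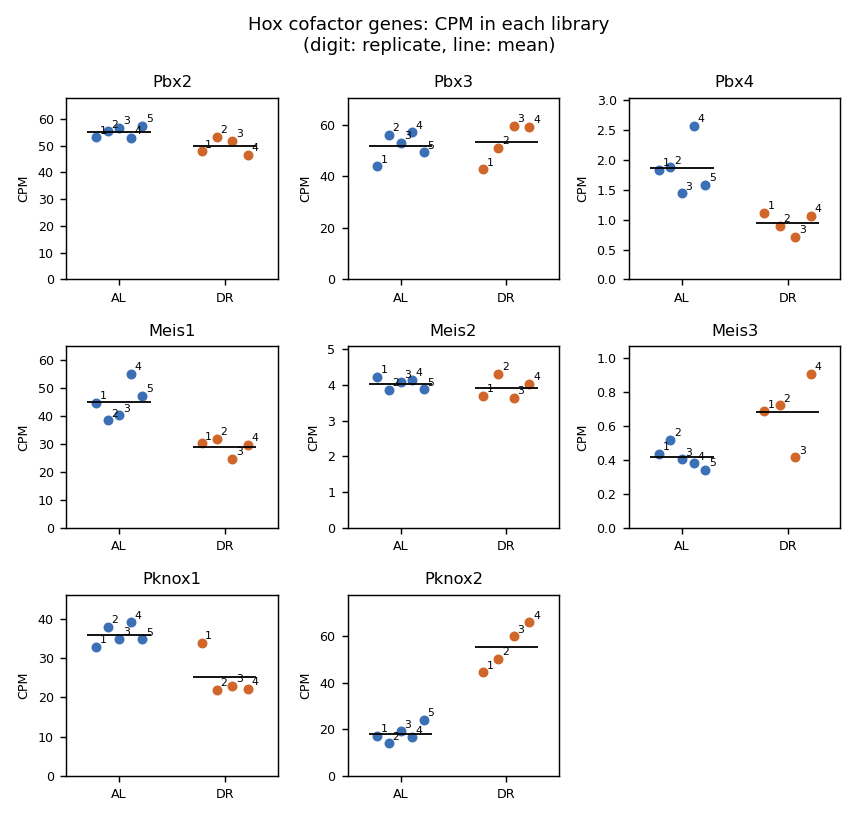
CPM in each library (points, numbered by replicate; lines, group means) for 8 of the 9 Pbx, Meis and Pknox genes, with every axis starting at 0. Pknox2 is higher in all 4 DR libraries, Meis1 and Pbx4 are lower in all 4, and Pbx2 and Pbx3 overlap between diets.

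Among regulators that keep Hox clusters silent (Polycomb) or active (Trithorax, retinoic acid), 5 of 28 tested genes rose and 4 fell, that is 32.1% changed against 40.7% of all tested genes. Cbx7 (54.09 ± 11.1 to 119.8 ± 10.5 CPM, log2 fold change 1.15, adjusted p = 0.00019) and Cbx2 (31.53 ± 4.71 to 63.69 ± 11.3 CPM, 1.01, adjusted p = 0.00029), both Polycomb chromodomain proteins, rose most. Ezh1, a histone H3 methyltransferase of Polycomb (0.69, adjusted p = 0.0015), and Kdm6a, a demethylase that removes the same mark (0.48, adjusted p = 0.0025), rose as well. Jarid2, a Polycomb cofactor (-0.45, adjusted p = 0.0016), and Ash2l, a Trithorax group subunit (-0.37, adjusted p = 0.010), fell. The rest of the list did not pass, apart from Rnf2, Ring1 and Rara, which changed by less than 0.5 on the log2 scale.

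Other factors that mark body regions gave mostly values near 0. Of 30 such genes, 10 entered the test. Of these, 2 fell and none rose, that is 20% lower against 21.7% of all tested genes. The highest were Barx2 (267.9 and 225.9 CPM in AL and DR), Irx5 (111.7 and 100.3 CPM) and Irx3 (97.92 and 127.1 CPM), which did not pass. Msx2 (12 and 11.47 CPM) and Msx1 (9.683 and 10.46 CPM) did not pass either. Without the filter on low counts 25 of the 30 were tested, of which 1 rose and 2 fell. Lmx1b, of the dorsal limb, went from 24.67 ± 4.4 to 12.52 ± 1.11 CPM (log2 fold change -0.98, adjusted p = 0.00039), and Dlx5 from 11.33 ± 3.72 to 6.015 ± 1.27 CPM (-0.91, adjusted p = 0.012). The Dlx5 call was lost without DR 1 and DR 2 (adjusted p = 0.12) and without AL 4 and AL 5 (-0.53, adjusted p = 0.052). The forelimb factor Tbx5 and the tail factors Cdx2, Cdx4 and Evx1 had no count in any library. The hindlimb factor Pitx1 (0 to 2 counts) and the ventral limb factor En1 (0 or 1 count) were close to that. Tbx4, also of the hindlimb, had 0 or 1 count in each AL library and 2, 6, 2 and 9 counts in DR 1 to 4, too few to pass the filter. Among the members, Hoxa11, Hoxa13, Hoxd11, Hoxd12 and Hoxd13, known for the distal limb, had 0 or 1 count in each library.

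Of 24 hair differentiation genes in the tables, including keratins under Hoxc13, 10 entered the test, 2 rose and 2 fell, that is 40% changed, near the 40.7% of all tested genes. The hair keratins Krt31 (log2 fold change 1.84, adjusted p = 0.0037) and Krt32 (0.94, adjusted p = 0.024) rose, at levels of 0.1854 ± 0.077 to 0.6808 ± 0.32 CPM and 4.746 ± 2 to 9.051 ± 2.17 CPM. Krt28, a keratin of the inner root sheath (-1.92, adjusted p = 0.0023), and Dlx3, a hair matrix factor (-0.69, adjusted p = 0.0068), fell. Krt32 did not pass without AL 3 (adjusted p = 0.057), AL 4 (0.05) or DR 2 (0.073). Markers of hair shaft and inner root sheath summed to 22.1 to 28.4 CPM in AL and 41.3 to 58.7 CPM in DR, beside the 33.87 and 44.57 CPM of Hoxc13. One gene carried that difference: Tchh (trichohyalin) rose from 17.2 ± 3.88 to 42.6 ± 7.66 CPM (1.31 on the log2 scale, adjusted p = 0.00027). Without Tchh the sums were 4.67 to 13.2 CPM in AL and 6.5 to 10.4 CPM in DR and overlapped.

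Among noncoding rows of the clusters, 2 of 9 entered the test and neither passed. Hoxb3os, antisense to Hoxb2 and Hoxb3, had means of 21.29 ± 3.02 CPM under AL and 16.63 ± 2.71 CPM under DR (-0.36 on the log2 scale, adjusted p = 0.062), and 2700086A05Rik, a transcript of the Hoxa cluster, at 4.504 ± 0.844 and 3.292 ± 0.451 CPM (-0.45, adjusted p = 0.071). Hoxa11as had counts in 1 library only, and the microRNA rows had 0 to 4 counts.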

How the data were processed

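RNA of sorted bulge cells was sequenced as single reads of 51 cycles from TruSeq RNA v2 libraries, per the labels' protocols. The deposited files hold raw counts per gene symbol, 1 file per library, which the authors did not normalize. HTSeq 0.11.2, TopHat2 2.1.0, Bowtie, FastQC 0.11.5 and build mm9 are named in the submitters' processing notes. Annotation and strand setting were not given in the sources used here. Of 35012 lines, 6 name no gene (25.9% to 30.7% of reads) and were left out.

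All 35006 gene symbols entered edgeR 4.0.16 (R 4.3.3): filterByExpr by group, TMM, a quasi-likelihood fit on diet, and p-values adjusted by Benjamini-Hochberg over 15447 genes (threshold 0.05). Standard errors follow from the F statistic. The 16 pairs of libraries within groups differed beyond sampling (chi-square over degrees of freedom of 24.6 to 110), and each counted once. Lengths, homeoboxes and 51-base runs came from GENCODE M21 and promoters from RefSeq, both GRCm38; no gene coordinates are given for the files' mm9. In the lists, 2 symbols were found under older names and 2 were not matched.

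Named were the members, of each other list up to 6 changed genes of smallest p, and the Pbx and Meis genes, except a few that are not reported here; other genes were chosen after their values were seen. Members and lists were chosen with earlier results of these data known. Alternatives were DESeq2 1.42.0 (size factors, Wald test), no filter or a stricter one, scaling by upper quartile or library size, limma 3.58.1 voom with quality weights, a replicate block, and leaving out libraries. The fit was tested on simulated data.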

Additional observations from a re-analysis of the deposited data

Results flagged for a closer look

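In 12 of 84 sets looked at (the AL or DR values of a Hox gene or Hox sum), the highest or lowest library stood far from the next one relative to the whole range. A chance rate of about 1 in 20 does not hold where 1 library has a count and the others have 0. Hoxc11 and Hoxd10 in DR and Hoxd13 in both diets were of that kind. The sums also contain members of other sets, so the 12 cannot be set against that rate. AL 5 accounted for 7 of the 12. It was low for Hoxa2 (14.4 CPM, next 18.4). It was high for Hoxb9 (77 CPM, next 57.8), Hoxd8 (71.8 CPM, next 37.2), the Hoxd sum (91 CPM, next 46.3) and the sum of groups 9 to 13 (131 CPM, next 102). It also held 0.64 CPM of Hoxa10, against 0.101 CPM in the next library, and 0.0376 CPM of Hoxd13, which is 1 count where the other AL libraries had 0.

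In DR, Hoxb4 was low in DR 1 (21.8 CPM, next 24.9). Hoxb1 was high in DR 4, at 0.129 CPM against 0.0376 CPM in the next library. DR 4 held 0.0322 CPM of Hoxc11 and 0.0322 CPM of Hoxd13, 1 count each where the other DR libraries had 0. DR 1 held 0.324 CPM of Hoxd10, 9 counts where the other DR libraries had 0.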

How the results depend on the processing

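Over 17 alternative settings (scaling, filter, tool, block, or 1 library left out), Hoxa3, Hoxb4, Hoxb6, Hoxc4, Hoxc5, Hoxc6, Hoxc8 and Hoxd4 passed in each; Hoxd8 passed in 15, Hoxd3 in 8, Hoxb7 in 6 and Hoxb9 in 5. The count of changed members ran from 9 to 13 when any 1 library was left out and was 10 to 14 under other scalings, filters and tools. It was 7 without DR 1 and DR 2 and 4 without AL 1 as well, in fits with fewer libraries. The share of all tested genes that changed moved too. It was 33.1% to 41.5% with 1 library left out and 25.3% to 45% under other scalings, filters and tools. Without DR 1 and DR 2 it was 33.8%, and without AL 1 as well 29.4%. AL and DR share replicate numbers, but deviations of same-numbered libraries were weakly correlated (0.04, 0.13, 0.23 and 0.03) and 1 of 4 DR libraries was closest to its own number, so the numbers were not taken as pairs; with the replicate block 11 members changed, 10 lower and Hoxc9 higher. Of all tested genes, 41.6% changed with that block. Hoxc9 also passed with limma-voom quality weights (adjusted p = 0.034).

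Directions reversed in 13 cases for members, none of them called. With 1 library left out, log2 fold changes ran from -0.2 to 0.02 for Hoxa2, from -0.1 to 0.02 for Hoxb5 and from -0.08 to 0.49 for Hoxd9. Without DR 1 and DR 2 they were 0.03 for Hoxa2, 0.08 for Hoxb5 and -0.09 for Hoxc13; without AL 1 as well, 0.04, 0.05 and -0.04; and without AL 4 and AL 5, -0.01 for Hoxa7. Pbx3 went to -0.03 under upper-quartile scaling and library size alone and to -0.02 to -0.01 with 1 library left out, and Meis2 to 0.01 without DR 3. The difference of the sum of groups 9 to 13 (-2.8 CPM) ran from -5.46 to 3.49 with 1 library left out. Among the other genes, Dlx3 (adjusted p = 0.061) and Krt32 (0.18) did not pass without DR 1 and DR 2, nor Pbx4 (0.055) and Ash2l (0.069) without AL 1 as well. The sums without Hoxc13, Fbln1 or Tchh were formed after the values were seen. The cause was not tested. Depth limits the 13 members outside the test: at 0 counts a level of up to 0.113 CPM was not detectable.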
